A study of Mus musculus with 5 samples.

Results

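The DNA replication machinery was followed as a group of 51 genes, chosen by symbol for their roles in origin licensing, the replicative helicase, DNA polymerases, nucleotide supply, and chromatin assembly. All 51 were present among the 20224 genes of the deposited count table, and all 51 were among the 15032 genes kept by the filter on low counts. The rule uses gene symbols and no measured value. Before an S phase, the origin recognition complex, *Cdc6*, and *Cdt1* load the ring-shaped MCM helicase onto DNA, and a kinase and several loading factors then switch the helicase on. Polymerase alpha with primase starts each strand, polymerases epsilon and delta extend it, the sliding clamp PCNA holds them on the template, and the fragments of the lagging strand are trimmed and ligated while nucleosomes are rebuilt behind the fork. Sympathetic neuroblasts are unusual among young neurons because they continue to divide after they have begun to express noradrenergic genes, so ganglia of this age hold cycling cells.

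The libraries were made from sympathetic ganglion cells of E14.5 mouse embryos from non-diabetic pregnancies. They comprised 2 control samples (replicates 5 and 6) and 3 *Hif1aCKO* samples (replicates 3, 4, and 5), each of 100 sorted cells. Control embryos were *Hif1a* loxP/+; *Isl1Cre*; *tdTomatoAi14* and *Hif1aCKO* embryos *Hif1a* loxP/loxP; *Isl1Cre*; *tdTomatoAi14*, so both groups carried the Cre knock-in at *Isl1*, the tdTomato reporter, and the *Prph-eGFP* transgene, and controls kept 1 *Hif1a* allele without loxP sites. The floxed mice had a mixed C57BL/6J; C57BL/6N background and the *Isl1Cre* mice an FVB background. Cre recombines in every cell with a history of *Isl1* expression, and sorting required both eGFP and tdTomato.

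The libraries held between 8254211 and 9700887 counts each, and replicates differed by more than counting noise (chi-square per degree of freedom 15.5 to 26.4). *Hif1a* had normalized counts of 2086 and 1584 in the control libraries and 2747, 1757, and 2135 in the *Hif1aCKO* libraries; only its exon 2 is floxed and counts are summed over all exons, so the deletion could not be read from them. *Xist*, the RNA that coats the inactive X chromosome, had 3974 and 4597 counts in control replicate 5 and *Hif1aCKO* replicate 3 and 1 to 3 counts elsewhere, which divides both genotypes. The 8 sympathetic neuron markers summed to 5407 to 6626 CPM (counts scaled to a common library total) in control and 4885 to 4934 in *Hif1aCKO* libraries. These markers did not move together: *Th*, *Dbh*, and *Isl1* were lower and *Hand2* higher in every *Hif1aCKO* library than in both controls. The 3 chromaffin markers summed to 954 to 1246 CPM against 352 to 901, and the 4 sensory neuron markers to 5.46 to 10.2 against 10.8 to 18.2. The chromaffin sum followed *Chgb* (5294 and 9375 counts against 724, 4739, and 1137). *Pnmt*, at few counts, was lower as well, and *Chga* overlapped (2806 and 2654 against 2161, 2919, and 2967). Most sensory counts were of *Neurod1* (62 and 46 against 83, 127, and 86), and *Avil* (16 and 3 against 7, 7, and 2) did not share its direction. The 4 Schwann cell precursor markers that were counted summed to 3.40 to 6.22 CPM in control and 5.53 to 129 in *Hif1aCKO* libraries, with 926 counts of *Fabp7* in *Hif1aCKO* replicate 3, 0 to 9 in the other libraries, and *Sox10* at 0 in control replicate 5 and *Hif1aCKO* replicate 4. Mesenchyme markers (4 counted) reached at most 2.82 CPM and endothelial markers (2 counted) at most 4.23, and erythroid markers were not analysed here. The part of these differences in the replication genes was not tested. The members' median log2 fold change was 0.19 with all libraries and 0.25 without *Hif1aCKO* replicate 3. That library differs from the other *Hif1aCKO* libraries in *Xist* as well as in *Fabp7*, so its removal does not test either.

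Replication genes were slightly higher in *Hif1aCKO* neurons as a group, unequally across the libraries, and no single gene passed the threshold. Relative to each gene's mean log2 level, the median member was at -0.18 in control replicate 6 and 0.21 in *Hif1aCKO* replicate 5. In the remaining libraries it was between -0.043 and 0.0034. Of the 51 members, 42 had a log2 fold change above 0, where 51.3% of all genes tested did, and the median was 0.19 for the members and 0.012 for all 15032 genes. A call required an adjusted p under 0.05 in edgeR's quasi-likelihood test, a log2 fold change beyond 0.3, and at least 50 normalized counts on average, and 0 of 51 members were called in a table where 0% of the genes were. An unadjusted p under 0.05 was reached by 6 members, *Tyms*, *Pole*, *Rfc4*, *Rfc1*, *Cdc6*, and *Pold1*, all higher in *Hif1aCKO*, where 3.83% of all genes reached it in this direction, and by 0 members in the lower direction, where 3.85% did. DESeq2 called 0.388% of all genes and 0 members, with 6 members at an unadjusted p under 0.05. The likelihood ratio test of edgeR and limma-voom called 0 members as well, with 4 members each at an unadjusted p under 0.05. In 16 members the lowest *Hif1aCKO* value exceeded the higher control, against 12.9% of all genes, and in 1 member, *Orc4*, all *Hif1aCKO* values were under both controls, against 12.9% of all genes. A different number of cycling cells and a different amount of a transcript per cycling cell cannot be told apart in counts from pooled cells. For any 1 gene taken alone, the smallest p that an exact permutation test allows with these group sizes is 0.1.

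**Figure D1:**
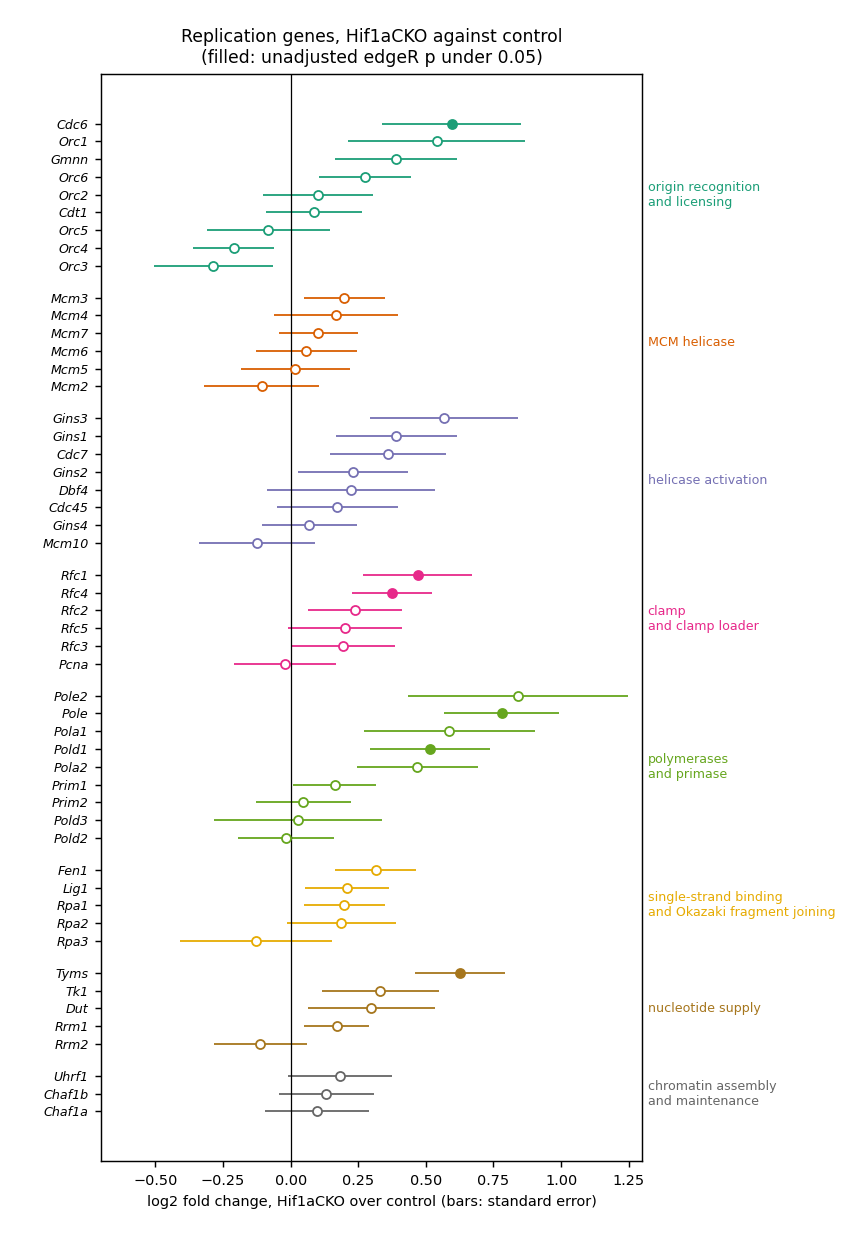
Log2 fold change of each of the 51 replication genes in Hif1aCKO over control libraries (x axis; points with standard errors from edgeR), grouped by role and sorted within each role. Filled points are the 6 genes with an unadjusted p under 0.05, which all lie to the right of 0, and 9 genes lie to the left of 0.

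Among the 9 origin recognition and licensing genes, 6 were higher and 3 lower, with a median log2 fold change of 0.10. *Cdc6* (ENSMUSG00000017499, chromosome 11, 98907801 to 98923940 of GRCm38), the ATPase that helps ORC load the helicase, had normalized counts of 327 and 313 in the control libraries and 514, 353, and 583 in the *Hif1aCKO* libraries. All 3 *Hif1aCKO* values were above the controls, with replicate 4 close to them, and the log2 fold change was 0.60 (standard error 0.26, edgeR adjusted p = 0.647). *Orc6* (chromosome 8, 85299632 to 85308278), the smallest subunit of ORC and the most counted gene of this role, had 1342 and 1209 against 1490, 1357, and 1779. Its groups did not overlap either, by a margin of few counts, and its log2 fold change of 0.27 (standard error 0.17, edgeR adjusted p = 0.728) fell to 0.16 without *Hif1aCKO* replicate 5.

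*Orc1*, an ORC subunit whose level changes over the cell cycle, had only 85.4 and 95.5 normalized counts in control and 116, 139.8, and 139 in *Hif1aCKO* libraries, a log2 fold change of 0.54 with a 95% confidence interval from -0.21 to 1.29. The remaining ORC subunits lay the other way or near 0: *Orc2* at 0.10, *Orc5* at -0.08, *Orc4* at -0.21, and *Orc3* at -0.29, with a median of -0.15 for the 4 of them and 0.54 for *Orc1*, *Orc6*, and *Cdc6*. *Orc4* had 1316 and 1428 against 1245, 1194, and 1116 normalized counts, and its groups did not overlap. *Orc3* had 903 and 991 against 988, 617, and 725, so *Hif1aCKO* replicate 3 sat with the controls. *Cdt1*, the loading partner of *Cdc6*, was at 0.09 and *Gmnn*, whose product geminin blocks *Cdt1*, at 0.39, both with overlapping groups. These subgroups were formed after the values were seen.

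The 6 subunits of the MCM2 to MCM7 helicase ring differed little between genotypes, with log2 fold changes from -0.11 (*Mcm2*) to 0.20 (*Mcm3*) and a median of 0.080. *Mcm6* (chromosome 1, 128331590 to 128359664) was the most counted, at 2859 and 2233 normalized counts in control and 2463, 2285, and 3199 in *Hif1aCKO* libraries. Control replicate 5 exceeded 2 of the 3 *Hif1aCKO* libraries, and the log2 fold change of 0.06 (standard error 0.19, 95% confidence interval -0.37 to 0.49, edgeR adjusted p = 0.967) turned to -0.12 without control replicate 6 and to -0.10 without *Hif1aCKO* replicate 5. *Mcm3* was the only ring subunit whose groups did not overlap, at 1119 and 1139 against 1221, 1268, and 1396. *Mcm4*, *Mcm5*, and *Mcm7* had log2 fold changes of 0.17, 0.02, and 0.10. *Mcm2* ranged from 1055 in *Hif1aCKO* replicate 4 to 1664 in control replicate 5.

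Of the 8 helicase activation genes 7 were higher, with a median of 0.23. Their largest log2 fold change was that of *Gins3*, a subunit of the GINS complex that joins MCM and *Cdc45* in the active helicase, at 0.57 (standard error 0.27), from 184 and 208 normalized counts in control to 282, 236, and 354 in *Hif1aCKO* libraries. Its groups did not overlap, whereas those of the other GINS genes did, with *Gins1* at 0.39, *Gins2* at 0.23, and *Gins4* at 0.07. *Gins2* (chromosome 8, 120578633 to 120589304) had 863 and 806 against 826, 1211, and 901, so that *Hif1aCKO* replicate 4 alone stood clearly above the controls. Without that library its log2 fold change (standard error 0.20, edgeR adjusted p = 0.823) was 0.048. *Gins2* shares 67.3% of its exonic bases with *Gse1* on the opposite strand, and counting is not stated to have used strand.

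The kinase that triggers helicase activation is made of *Cdc7* and its regulatory subunit *Dbf4*. *Cdc7* had 777 and 509 normalized counts in control and 791, 887, and 796 in *Hif1aCKO* libraries, a log2 fold change of 0.36 (standard error 0.21) with no overlap. *Dbf4* (chromosome 5, 8396973 to 8422716) had 316 and 165 against 277, 272, and 293, with controls far apart on either side of the *Hif1aCKO* libraries. Its log2 fold change of 0.22 (standard error 0.31, edgeR adjusted p = 0.904) became -0.18 without control replicate 6. *Cdc45* was at 0.17 and *Mcm10*, a factor that helps the activated helicase move, at -0.12, each with overlapping groups.

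*Pcna* lay near 0 while the genes of its loader were higher. *Pcna*, the sliding clamp, had 1685 and 1547 normalized counts in control and 1382, 1427, and 1967 in *Hif1aCKO* libraries, a log2 fold change of -0.02 with a 95% confidence interval from -0.46 to 0.41. All 5 genes of the loader complex RFC, which opens the clamp around DNA, were higher, with a median of 0.24. *Rfc4* (ENSMUSG00000022881, chromosome 16, 23113943 to 23127737) had 1331 and 1478 against 1674, 1880, and 1911. Every *Hif1aCKO* library exceeded both controls, and the log2 fold change was 0.37 (standard error 0.15, edgeR adjusted p = 0.621). *Rfc1* (ENSMUSG00000029191, chromosome 5, 65261850 to 65335670), the large subunit, had 563 and 823 against 912, 971, and 996. The *Hif1aCKO* libraries were close together and above both controls, which were far apart, and the log2 fold change of 0.47 (standard error 0.20, edgeR adjusted p = 0.647) was 0.22 without control replicate 5 and 0.76 without control replicate 6. *Rfc2*, *Rfc3*, and *Rfc5* were at 0.24, 0.19, and 0.20, with overlapping groups. The difference between *Pcna* and the loader genes was not tested.

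Polymerase and primase genes had the highest median of the roles, 0.47, and 8 of 9 were higher. The catalytic subunits of all 3 replicative polymerases were higher. *Pole* (ENSMUSG00000007080, chromosome 5, 110286306 to 110337474), the leading-strand polymerase epsilon, had 281 and 249.5 normalized counts in control and 422, 501, and 444 in *Hif1aCKO* libraries. Its groups were well apart, at 265 ± 22.4 (SD, n = 2) and 456 ± 40.8 (SD, n = 3), and the log2 fold change was 0.78 (standard error 0.21, edgeR adjusted p = 0.598, DESeq2 adjusted p = 0.142). *Pold1* (ENSMUSG00000038644, chromosome 7, 44532746 to 44548849), the catalytic subunit of the lagging-strand polymerase delta, had 329 and 300.5 against 382, 519, and 449, a log2 fold change of 0.52 (standard error 0.22, edgeR adjusted p = 0.647) with no overlap. *Pola1*, the X-linked catalytic subunit of polymerase alpha, had 315 and 364 against 324, 696, and 508. Its *Hif1aCKO* replicate 3, the *Xist*-positive one, lay between the controls, and the log2 fold change was 0.59 (standard error 0.32).

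The accessory subunits and primase were mixed, with a median of 0.11 for 6 genes, a subgroup formed after the values were seen. *Pole2* had the largest log2 fold change of all members, 0.84, at low counts of 102 and 74.2 against 97.6, 181, and 195, with *Hif1aCKO* replicate 3 between the controls and a 95% confidence interval from -0.10 to 1.77. *Pola2*, which tethers primase to polymerase alpha, had 483 and 437 against 589, 529, and 792, a log2 fold change of 0.47 (standard error 0.22) with no overlap. *Prim1* (chromosome 10, 128015168 to 128030037), the catalytic primase subunit and the most counted gene of this role, had 1492 and 1286 against 1580, 1440, and 1643. *Hif1aCKO* replicate 4 fell below control replicate 5, and the log2 fold change of 0.16 (standard error 0.15, edgeR adjusted p = 0.841) ranged from 0.054 without control replicate 6 to 0.27 without control replicate 5. *Prim2*, *Pold2*, and *Pold3* were at 0.05, -0.02, and 0.03.

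**Figure D2:**
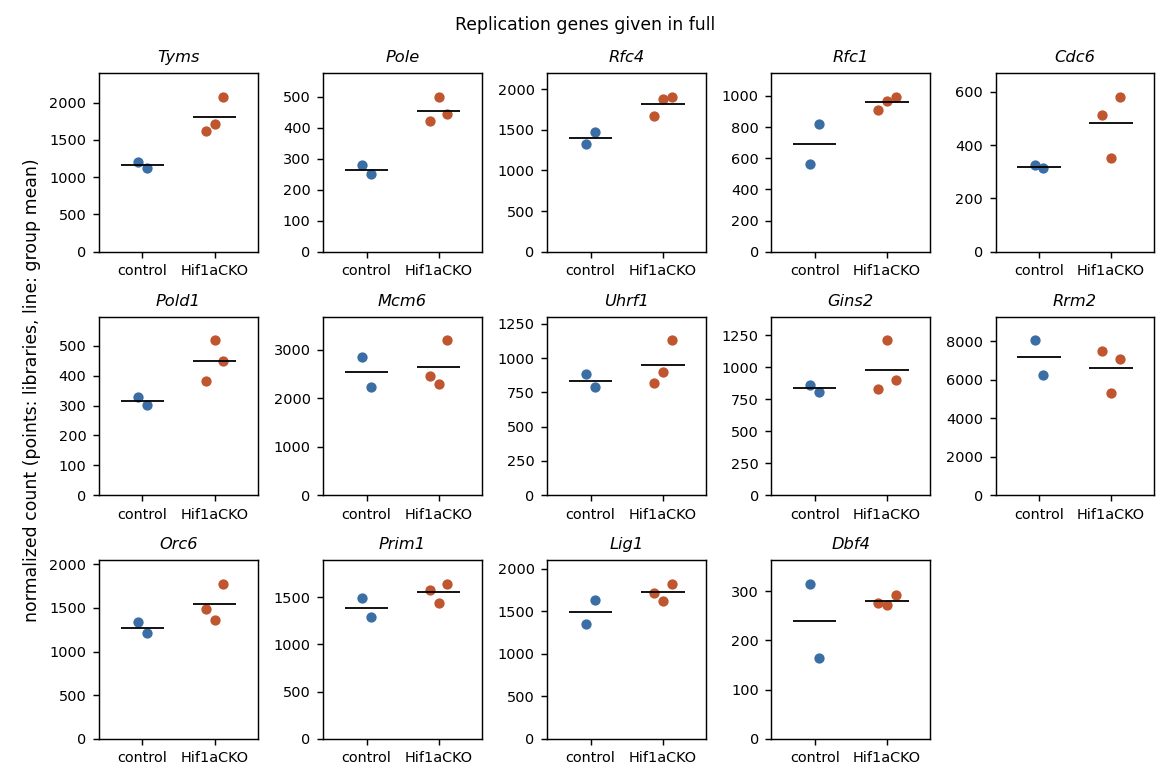
Normalized counts (y axes, each from 0) of the 14 replication genes given in full, in the 2 control (blue) and 3 Hif1aCKO (orange) libraries; horizontal lines are group means. In Tyms, Pole, Rfc4, Rfc1, Cdc6, Pold1, and Orc6 every Hif1aCKO point lies above both control points, and in Mcm6, Uhrf1, Gins2, Rrm2, Prim1, Lig1, and Dbf4 the groups overlap.

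Single-strand binding and Okazaki fragment joining genes had a median of 0.20, with 4 of 5 higher. *Lig1* (chromosome 7, 13277283 to 13311433), the ligase that seals the fragments, had 1346 and 1634 normalized counts in control and 1716, 1623, and 1826 in *Hif1aCKO* libraries. *Hif1aCKO* replicate 4 was just below control replicate 6, and the log2 fold change of 0.21 (standard error 0.15, edgeR adjusted p = 0.777) ranged from 0.073 without control replicate 5 to 0.35 without control replicate 6. *Fen1*, the nuclease that removes their flaps, had 1015 and 930.3 against 1223, 1167, and 1237, a log2 fold change of 0.31 (standard error 0.15) with no overlap. It shares 84.2% of its exonic bases with other genes, nearly all of it with the antisense gene *Gm10143*. Of the trimeric single-strand binding protein RPA, *Rpa1* was at 0.20 with groups that did not overlap (1066 and 1056 against 1271, 1129, and 1252), *Rpa2* at 0.19, and *Rpa3* at -0.13 with controls far apart, at 1425 and 714.

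Nucleotide supply genes had a median of 0.30, with 4 of 5 higher, and held both the smallest p of the members and the most abundant transcript. *Tyms* (ENSMUSG00000025747, chromosome 5, 30058202 to 30073617), thymidylate synthase, had 1208 and 1124 normalized counts in control and 1613, 1710, and 2081 in *Hif1aCKO* libraries. Its means were 1166 ± 59.5 (SD, n = 2) and 1801 ± 247 (SD, n = 3), the groups did not overlap, and the log2 fold change was 0.63 (standard error 0.17, edgeR adjusted p = 0.586, DESeq2 adjusted p = 0.0656). *Rrm2* (chromosome 12, 24708241 to 24714146), the small subunit of ribonucleotide reductase that limits the enzyme's activity, had 8060 and 6261 against 7468, 5329, and 7083. The highest value was a control and the lowest a *Hif1aCKO* library, and the log2 fold change of -0.11 (standard error 0.17, 95% confidence interval -0.51 to 0.29, edgeR adjusted p = 0.920) turned positive, to 0.080, without control replicate 5 and to 0.022 without *Hif1aCKO* replicate 4. *Rrm1*, its large subunit, had 3314 and 3153 against 3452, 3828, and 3634, a log2 fold change of 0.17 with no overlap. *Tk1*, thymidine kinase, was at 0.33 with no overlap (405 and 317 against 430.0, 431, and 502), and *Dut*, which removes dUTP, at 0.30 with overlapping groups.

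All 3 chromatin genes were slightly higher with overlapping groups, *Chaf1a* at 0.10 and *Chaf1b* at 0.13, subunits of the histone chaperone CAF-1, and *Uhrf1* at 0.18. *Uhrf1* (chromosome 17, 56303321 to 56323486), which brings the maintenance methyltransferase to newly replicated DNA, had 883 and 789 normalized counts in control and 817, 899, and 1132 in *Hif1aCKO* libraries. *Hif1aCKO* replicate 5 stood apart, and without it the log2 fold change (standard error 0.19, edgeR adjusted p = 0.861) was 0.038. *Chaf1a* shares 52.5% of its exonic bases with *Ubxn6* on the opposite strand.

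The group difference was carried unequally by the libraries. On the log2 scale, relative to each gene's mean over the 5 libraries, the median member was at -0.043 and -0.18 in control replicates 5 and 6, and at -0.0041, 0.0034, and 0.21 in *Hif1aCKO* replicates 3, 4, and 5. *Hif1aCKO* replicate 5 held the highest value for 28 of 51 members and was above the gene's mean in 48, whereas control replicate 6 held the lowest value for 25 and was above the mean in 7. Control replicate 5 and *Hif1aCKO* replicates 3 and 4 were above the mean in 22, 24, and 27 members. The members' median log2 fold change was 0.12 without control replicate 6 and 0.12 without *Hif1aCKO* replicate 5, and the members at an unadjusted p under 0.05 numbered 3 and 2. The members together took 0.648% and 0.564% of the counts in the control libraries and 0.647%, 0.669%, and 0.760% in the *Hif1aCKO* libraries, so on this measure *Hif1aCKO* replicate 3 lay between the controls.

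**Figure D3:**
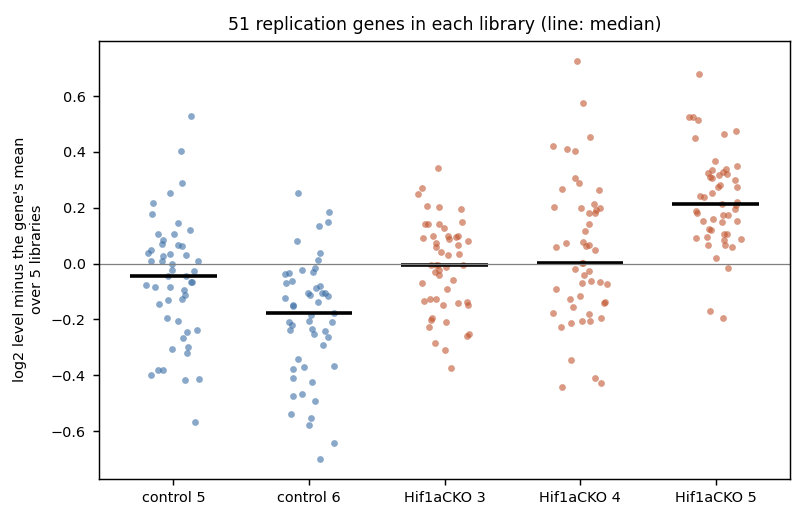
Log2 level of each of the 51 replication genes minus that gene's mean over the 5 libraries (y axis), by library (x axis; blue control, orange Hif1aCKO); each point is a gene and the black line is the median. The medians run from -0.18 in control 6 to 0.21 in Hif1aCKO 5, with control 5, Hif1aCKO 3, and Hif1aCKO 4 between -0.043 and 0.0034.

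Role medians differed within a library. In *Hif1aCKO* replicate 4 the MCM ring genes had a median of -0.16 and *Orc2* to *Orc5* of -0.20, while the catalytic polymerase subunits had 0.45 and the clamp loader 0.20. *Hif1aCKO* replicate 5 had 0.25 for the MCM ring and 0.27 for the catalytic subunits. In *Hif1aCKO* replicate 3 these medians were -0.079 and -0.024, and in control replicates 5 and 6 the ring was at 0.070 and -0.13 and the catalytic subunits at -0.38 and -0.37. The medians of the catalytic subunits, the clamp loader, GINS, RPA, and the trio of *Orc1*, *Orc6*, and *Cdc6* were higher in every *Hif1aCKO* library than in both controls, and those of the MCM ring, *Orc2* to *Orc5*, and the accessory subunits with primase overlapped. Each gene of the trio had separate groups by itself, so the median of the trio could not overlap. The licensing and polymerase subgroups were formed after the values were seen, and these separations were not tested.

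Within pairs of libraries alike in *Xist*, the difference was unequal. Between the *Xist*-positive libraries, control replicate 5 and *Hif1aCKO* replicate 3, the median of the members was -0.012, with 25 of 51 higher in *Hif1aCKO*. Among the remaining libraries, control replicate 6 and *Hif1aCKO* replicates 4 and 5, it was 0.30, with 45 of 51 higher. These comparisons were added after the values were seen, the first has 1 library a genotype, and whether the pairs differ was not tested.

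The other genes of DNA replication came from a list of 38, written with earlier results of these data known. It includes fork protection, clamp unloading, RNase H2, histone chaperones, and topoisomerase 1, and 37 of its genes passed the filter. Of these, 32 were higher, where 51.3% of all genes were, and the median was 0.31. edgeR called 0 of them and 0% of all genes. An unadjusted p under 0.05 in edgeR was reached by 5 in the higher direction, against 3.83% of all genes. In the lower direction 0 reached it, against 3.85%. In 11 genes all *Hif1aCKO* libraries were above both controls, against 12.9% of all genes. *Pclaf*, which binds PCNA, had 3007 and 2217 normalized counts in control and 3697, 3962, and 3896 in *Hif1aCKO* libraries (log2 fold change 0.56, standard error 0.16, edgeR adjusted p = 0.598). *Nasp*, a histone H1 and H3 chaperone, had 3278 and 2383 against 3336, 4296, and 4466 (0.51, standard error 0.19, edgeR adjusted p = 0.621). *Top1*, which relaxes DNA ahead of the fork, had 2023 and 1916 against 2381, 2491, and 2507 (0.32, standard error 0.13, edgeR adjusted p = 0.627). In all 3 the groups did not overlap, as in *Asf1a* and *Pif1*, the other genes of this list with an unadjusted p under 0.05.

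A list of 20 mitotic genes, which act later in the cell cycle, was set beside the replication genes. This list is not independent evidence of its direction, because 8 of its genes, *Plk1*, *Cenpe*, and *Mki67* among them, are ones the study picked from these same libraries. All 20 were higher, with a median of 0.63, and 0 were called by edgeR, which called 0% of all genes. An unadjusted p under 0.05 in edgeR was reached by 16, against 3.83% of all genes in this direction. In 17 all *Hif1aCKO* libraries were above both controls, against 12.9% of all genes. With DESeq2 the study reported *Cdc20*, *Ccnb1*, *Kif23*, *Cenpe*, *Cenpf*, and *Mki67* as upregulated in these libraries. In its qRT-PCR of dissected sympathetic chains, *Cdc20*, *Kif23*, and *Mki67* were increased in *Hif1aCKO*, and *Plk1* was not affected by the deletion. The 12 genes that the study did not pick were all higher, with a median of 0.54. Of them, 8 had an unadjusted p under 0.05 and 9 had no overlap, against 3.83% and 12.9% of all genes. These 12 genes are not independent evidence either, because they were listed with earlier results of these data known. *Plk1*, a kinase that drives mitotic entry, had 751 and 834 normalized counts in control and 1534, 1620, and 1389 in *Hif1aCKO* libraries (log2 fold change 0.93, standard error 0.16, edgeR adjusted p = 0.471). *Cenpe*, a kinetochore motor, and *Mki67*, the Ki-67 antigen, had log2 fold changes of 0.84 and 0.78 (edgeR adjusted p = 0.567 for both). Within the *Xist*-positive pair the median of the mitotic genes was 0.42 and within the remaining libraries 0.85, whereas the other replication genes had 0.092 and 0.42. The difference between the lists was not tested, and the genes of a list share the same libraries.

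**Figure D4:**
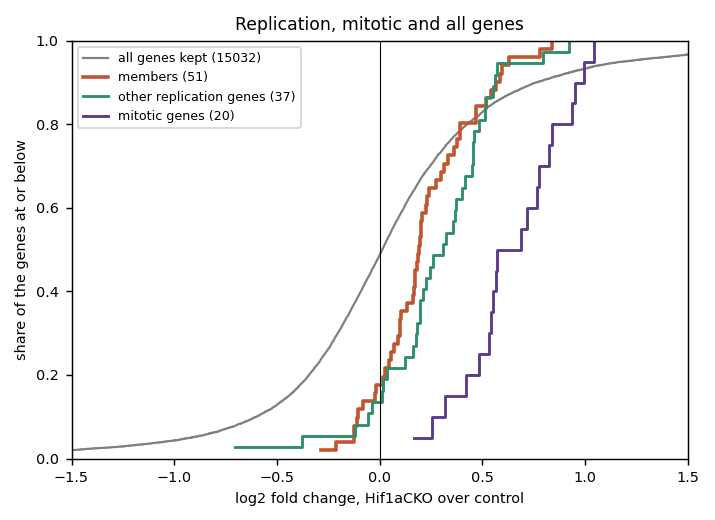
Cumulative share of genes (y axis) at or below each log2 fold change in Hif1aCKO over control (x axis, a few genes beyond its ends) for the 51 replication genes, 37 other replication genes, 20 mitotic genes, and all 15032 genes tested. The medians are 0.19, 0.31, 0.63, and 0.012.

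Levels were compared between members as normalized counts per kilobase of annotated exon. *Rrm2* had the highest mean over the 5 libraries, 2468 per kilobase, followed by *Dut* at 1272, *Rfc4* at 1080, *Rpa3* at 894, and *Pcna* at 667. The ranges of *Dut*, *Rfc4*, and *Rpa3* over the libraries overlapped. *Dbf4* was lowest at 30.3, with *Orc1* at 33.1 and *Pole* at 34.0, and these neighbours overlapped as well. The MCM ring subunits, which form a complex with 1 copy of each, lay between 209 (*Mcm2*) and 559 (*Mcm6*), a ratio of 2.68. Members with a mean normalized count under 500 had a median log2 fold change of 0.55 (10 genes), and the 41 others one of 0.17. The split at 500 was not planned, and the difference between these medians was not tested. Across the 51 members the Spearman correlation of the log2 fold change with the mean normalized count was -0.31, and that of the standard error with the mean was -0.67, values that share the same libraries and are given without a test.

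**Figure D5:**
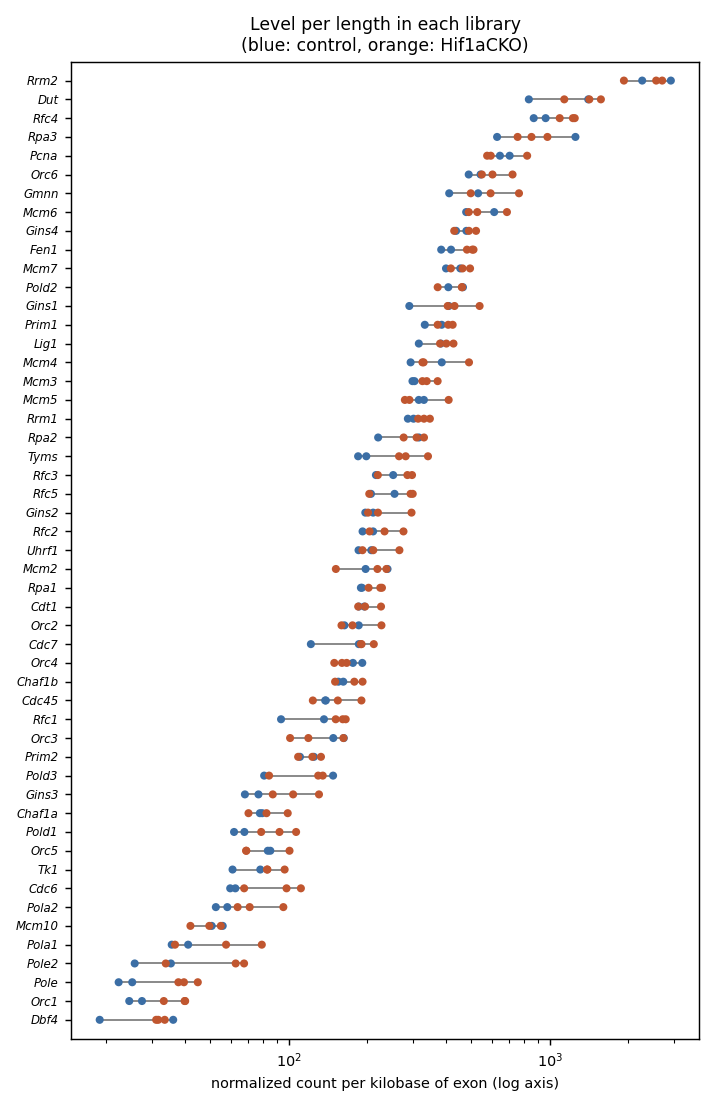
Normalized count per kilobase of exon (x axis, log scale) of the 51 replication genes in each of the 5 libraries (blue control, orange Hif1aCKO), ordered by mean; grey lines span the lowest and highest library. Rrm2 is alone at the top at 2468 on average, and Dbf4, Orc1, and Pole are lowest, at 30.3 to 34.0.

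Replication genes are textbook targets of the E2F transcription factors, so the promoters were searched for E2F sites (TTTCCCGC, TTTGGCGC, TTTCGCGC, or TTTGCCGC, on both strands, overlaps counted). RefSeq promoter windows on GRCm38.p6, from 250 bases before to 50 bases after the start, were matched for 43 of 51 members, all but *Gmnn*, *Mcm4*, *Gins1*, *Gins2*, *Gins4*, *Rfc2*, *Prim2*, and *Pole*. A site was present in 16 of the 43 (37.2%), against 4.75% of 10322 genes tested that have a window and 2.60% of all 27025 genes with one. The CCAAT box was present in 25 members (58.1%, against 43.1% of the genes tested) and the element TTTGAA, found in promoters of late cell cycle genes, in 7 (16.3%, against 14.1%). Members with an E2F site had a median log2 fold change of 0.20, with 15 of 16 higher, and the 27 without had 0.17, with 19 higher.

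In 10 members at least 1 E2F site lay before the RefSeq start. Segments around these sites are shown for the 5 members where the segment overlaps no annotated exon, and for *Orc1*, to set the sites of genes that were higher (*Cdc6*, *Orc1*, *Pola1*) beside those of genes near 0 (*Mcm5*, *Mcm6*) or between (*Uhrf1*). They are written 5′ to 3′ on the gene's strand with the sites in capitals.
Cdc6: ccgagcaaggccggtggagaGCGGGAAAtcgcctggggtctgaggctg
Orc1: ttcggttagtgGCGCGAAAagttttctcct
Pola1: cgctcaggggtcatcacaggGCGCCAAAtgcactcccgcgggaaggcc
Mcm5: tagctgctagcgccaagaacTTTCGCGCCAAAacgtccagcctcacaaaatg
Mcm6: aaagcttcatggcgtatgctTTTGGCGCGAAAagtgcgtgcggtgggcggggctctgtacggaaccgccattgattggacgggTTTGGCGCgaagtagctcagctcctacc
Uhrf1: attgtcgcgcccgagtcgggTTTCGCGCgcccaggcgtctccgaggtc

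The *Cdc6* segment is chr11:98907993-98908040 on the plus strand, with its site 138 to 131 bases before the start. The *Orc1* segment is chr4:108579416-108579445 on the plus strand, with its site 27 to 20 bases before the start. The *Orc1* segment begins before an annotated first exon of *Orc1* and runs into it. Starts here are RefSeq starts. The GENCODE spans of *Cdc6*, *Orc1*, and *Uhrf1* begin further upstream, at 98907801, 108579423, and 56303321. The *Cdc6* and *Uhrf1* segments therefore lie inside these spans, in no annotated exon. The *Pola1* segment is chrX:93632266-93632313 on the minus strand, with its site 138 to 131 bases before the start. *Mcm5* (chr8:75109336-75109387, plus strand) held overlapping sites on both strands, 153 to 142 bases before the start. *Mcm6* (chr1:128359725-128359835, minus strand) held 3 sites from 110 to 40 bases before the start, the most of any member, with log2 fold changes of 0.06 for *Mcm6* and 0.02 for *Mcm5*. *Uhrf1* (chr17:56304108-56304155, plus strand) held its site 185 to 178 bases before the start. *Orc3*, whose site lay 41 to 34 bases before the start, was the member with an E2F site and a log2 fold change below 0. The segment around the *Orc3* site overlaps an annotated exon of the gene *Rars2*. A match gives the letters in the window only, and no binding was measured.

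Exonic bases are shared with another gene in 18 members. The paper gives default settings of Rsubread for counting and does not mention strand. The median log2 fold change was 0.22 in these 18 members and 0.17 in the 33 members that share no exonic base with another gene. Levels per kilobase were divided by all exonic bases, shared ones included, so reads left uncounted there would lower these levels. *Pcna* and *Tyms* have annotated pseudogenes named after them, and reads mapping to several places were not counted, which can lower their counts.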

How the data were processed

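Members and lists were chosen with earlier results of these data known. The authors trimmed the reads with cutadapt (version 1.18 per the submitters' processing notes), filtered them with Bowtie (version 1.2.2) and SortMeRNA, mapped them to GRCm38 with STAR (version 2.7.0c), and counted reads per gene with Rsubread. The deposited values are these raw counts per gene for each library, with no normalization, and all 5 libraries were used. Libraries were grouped by the genotype in the labels, and no batch is given there.

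Genotypes were compared with edgeR (version 4.0.16, R version 4.3.3): TMM factors (0.974 to 1.03), filterByExpr, the quasi-likelihood test without covariates, and Benjamini-Hochberg adjustment over 15032 genes. Normalized counts are counts over the TMM-adjusted library size, scaled to a library of 8747700 counts. Fold changes are *Hif1aCKO* over control on the log2 scale. P-values rest on the spread between libraries of pooled sorted cells, and total counts of 8254211 to 9700887 gave each member at least 80 counts in every library. Genes given in full had an unadjusted p under 0.05, the highest mean count of their role, or the highest or lowest level per length; of other lists, the 3 genes with the smallest p were taken. Values of other genes, and the promoter segments other than that of *Cdc6*, were chosen after values were seen. Names, exons, and positions came from GENCODE M21 on GRCm38, and promoters from RefSeq; the authors used release M8. Other settings tried were RLE scaling, upper-quartile scaling, DESeq2 (version 1.42.0), the likelihood ratio test, limma-voom (version 3.58.1), no filter, at least 10 counts in every library, other thresholds, and leaving out each library. The fit was tested on simulated data. Planned protein stretches were not used here.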

Additional observations from a re-analysis of the deposited data

How the results depend on the processing

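Under RLE and upper-quartile normalization, DESeq2, the likelihood ratio test, limma-voom, the other filters, and the other thresholds, no member was called, and the members' median log2 fold change, the number higher, and the number with separate groups kept their direction and stayed within 1.5 times the values given. With each library left out in turn, 0 members were called, the median ranged from 0.12 to 0.26, members higher from 34 to 46, members at an unadjusted edgeR p under 0.05 from 2 to 8, and the mitotic median from 0.53 to 0.86. The number of members with separate groups rose from 17 to between 21 and 33, where fewer libraries are left to overlap. Shares over all genes with a library left out are not given here. The counts of members with separate groups or an unadjusted p under 0.05 in these settings are therefore no result about the members. A lone control was assumed to vary like the other libraries. With at least 1 of the 5 libraries left out, 17 of 51 members changed direction (3 to 8 for each library). Among the 14 genes given in full these were *Rrm2* (0.080 without control replicate 5, 0.022 without *Hif1aCKO* replicate 4, range -0.29 to 0.080), *Mcm6* (-0.12 without control replicate 6, -0.10 without *Hif1aCKO* replicate 5, range -0.12 to 0.24), and *Dbf4* (-0.18 without control replicate 6, range -0.18 to 0.76); the others were *Chaf1a*, *Dut*, *Gins4*, *Mcm2*, *Mcm4*, *Mcm5*, *Orc2*, *Orc5*, *Pcna*, *Pold2*, *Pold3*, *Prim2*, *Rpa2*, and *Rpa3*. The cause was not tested. Between the libraries with *Xist* above 1000 counts, a split made after seeing the data, the members' median was -0.012 with 25 higher, the other replication genes' 0.092, and the mitotic genes' 0.42; among the libraries at or below 1000 the mitotic median was 0.85. No paired analysis was possible because the groups share only 1 replicate number. Each member had at least 80 counts in every library, and the groups held 2 and 3 libraries. Over all genes, replicates differed by more than counting noise. How far depth and the number of libraries each limit the precision for the members was not tested.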
